A study of Mus musculus with 8 samples.

Results

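The 9 genes described here, Havcr1, Lcn2, Clu, Spp1, Vcam1, Sox9, Prom1, Cd24a and Dcdc2a, mark kidney tubule cells that have been injured or that remain in an unrepaired state. They were chosen by symbol, with earlier results of these data known. All 9 were found among the 21705 gene rows of the deposited expression table. The table holds RNA sequencing of kidney cortex from mice of mixed background. The 4 KS libraries were labelled Sav1-/- and tamoxifen, and the 4 control libraries were labelled Sav1+/+ and vehicle. Sav1 encodes salvador, a scaffold of the Hippo kinase cascade, and the labels contrast cortex without Sav1 with cortex that retains it. Genotype and treatment change together, so their contributions cannot be told apart. The labels do not state the ages, the driver of the deletion or whether each replicate was its own animal, so every p-value here reflects only how much these libraries vary, part of which may be technical.

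When a proximal tubule cell is injured it loses its brush border and transporters, spreads, and switches on genes that are silent or low in the healthy nephron. Some of these encode secreted proteins that reach the urine or matrix (Lcn2, Clu, Spp1), some encode surface proteins (Havcr1, Vcam1, Prom1, Cd24a), and Sox9 encodes a transcription factor of regenerating tubule cells. Most injured cells redifferentiate, while cells in mouse kidney that keep expressing Vcam1 and Dcdc2a are described as failed-repair cells. In the healthy kidney several of the 9 are also made by other epithelia, such as the thin limbs, the collecting duct and the parietal cells of the glomerulus.

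RefSeq promoter windows (build GRCm38.p6) were at hand for 5 of the 9 genes and are shown because the 9 genes moved together in the comparison below. The 250 bases before the most upstream listed start are printed 5′ to 3′ for the pair with the largest fold changes, Lcn2 at chr2:32387740-32387989 (minus strand) and Havcr1 at chr11:46739973-46740222 (plus strand), and for the pair with a match to STAT or AP-1, Prom1 at chr5:44101737-44101986 (minus strand) and Dcdc2a at chr13:25055754-25056003 (plus strand). Capitals mark matches, on either strand, to 4 motifs, which are STAT (TTCNNNGAA), TEAD (GGAATG), AP-1 (TGANTCA) and the TATA box (TATAAA).
Lcn2: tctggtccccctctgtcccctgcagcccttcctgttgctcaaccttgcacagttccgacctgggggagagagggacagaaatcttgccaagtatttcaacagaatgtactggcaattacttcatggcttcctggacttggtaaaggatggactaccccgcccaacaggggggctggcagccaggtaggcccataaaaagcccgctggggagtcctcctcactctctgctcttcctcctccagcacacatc
Havcr1: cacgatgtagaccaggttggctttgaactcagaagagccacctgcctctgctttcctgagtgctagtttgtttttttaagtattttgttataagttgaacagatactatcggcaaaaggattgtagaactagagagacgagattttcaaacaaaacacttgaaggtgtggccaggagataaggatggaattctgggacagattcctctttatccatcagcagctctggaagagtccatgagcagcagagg
Prom1: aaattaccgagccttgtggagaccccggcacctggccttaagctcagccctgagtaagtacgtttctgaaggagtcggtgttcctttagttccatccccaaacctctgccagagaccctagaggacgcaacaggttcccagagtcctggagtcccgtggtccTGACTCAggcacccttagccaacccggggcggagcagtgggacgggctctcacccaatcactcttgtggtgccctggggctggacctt
Dcdc2a: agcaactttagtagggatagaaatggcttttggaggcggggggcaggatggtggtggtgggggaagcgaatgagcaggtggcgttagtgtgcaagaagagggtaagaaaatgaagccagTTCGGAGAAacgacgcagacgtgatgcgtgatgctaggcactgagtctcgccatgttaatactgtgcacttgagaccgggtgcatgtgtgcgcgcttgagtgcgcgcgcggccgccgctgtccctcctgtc
Prom1 held the AP-1 letters TGACTCA from 88 to 82 bases before this start, and a further Prom1 start held TGAATCA from 189 to 183 bases before it. Dcdc2a held the STAT letters TTCGGAGAA from 131 to 123 bases before its start. Spp1 held TATAAA from 211 to 206 bases before its most upstream start, and no matches overlapped. Over the 9 listed starts of the 5 genes, 1 window held STAT, 0 held TEAD, 2 held AP-1 and 1 held the TATA box. Among all 32851 windows of this length in the RefSeq table, 7.02% held STAT, 12.6% TEAD, 6.75% AP-1 and 12.4% the TATA box. These matches are letters in a window and say nothing of binding.

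Each KS library held about 15700000 to 20900000 reads and each control library about 20500000 to 25000000, estimated from the steps between low values. The deposited values are scaled so that the upper quartile of the values above 0 lies between 999 and 1000 in every library, and they are not divided by gene length. Sav1 averaged 898 ± 127 in KS and 1350 ± 345 in control libraries (SD, n = 4 each), with overlapping groups (log2 fold change -0.56 ± 0.19 SE, limma adjusted p = 0.0220). The KS mean was thus 0.665 of the control mean, so this value does not by itself show the loss that the label states, and the labels do not give the deleted exons. Xist was at 9280 to 16095 in the KS libraries and at most 0.989 in the controls, while Uty, Ddx3y, Kdm5d and Eif2s3y on the Y chromosome were listed at 0 in every KS library and at 326 or more in every control library. Genotype, treatment and these sex-linked transcripts split the libraries in the same way, and they cannot be told apart in any result below. Among proximal tubule markers, Slc34a1, the phosphate cotransporter gene, was at 10492 or more in every library. Slc5a2, from the same list, was as low as 387 in KS replicate 4. RNA of proximal tubule was thus present in every library, which does not by itself check the cortex label.

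All 9 injury and failed-repair genes were higher in the KS cortex, and for each of them the lowest KS library lay above the highest control library. The rises ran from 8.40-fold for Prom1 to 330-fold for Lcn2, with a median log2 fold change of 4.06 beside 0.23 over all 13677 genes tested. Of all tested genes, 43.9% were called higher, 25.2% lower and 69.1% in either direction by the same test (limma, adjusted p under 0.05), so a call by itself was common. The sizes were less so, as 3.82% of tested genes were called with a log2 fold change of at least 3, and all 9 were among them. Non-overlapping groups were found with KS higher for 41% of tested genes and with KS lower for 24.1%. For each of the 9, exact permutation of the group labels (two-sided) returned p = 0.0286, the smallest value that 70 assignments of the libraries allow. Groups of 4 that do not overlap always return this value, so it adds nothing to the separation already given. In cortex RNA, more cells of a type and more RNA per cell cannot be told apart.

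**Figure D1:**
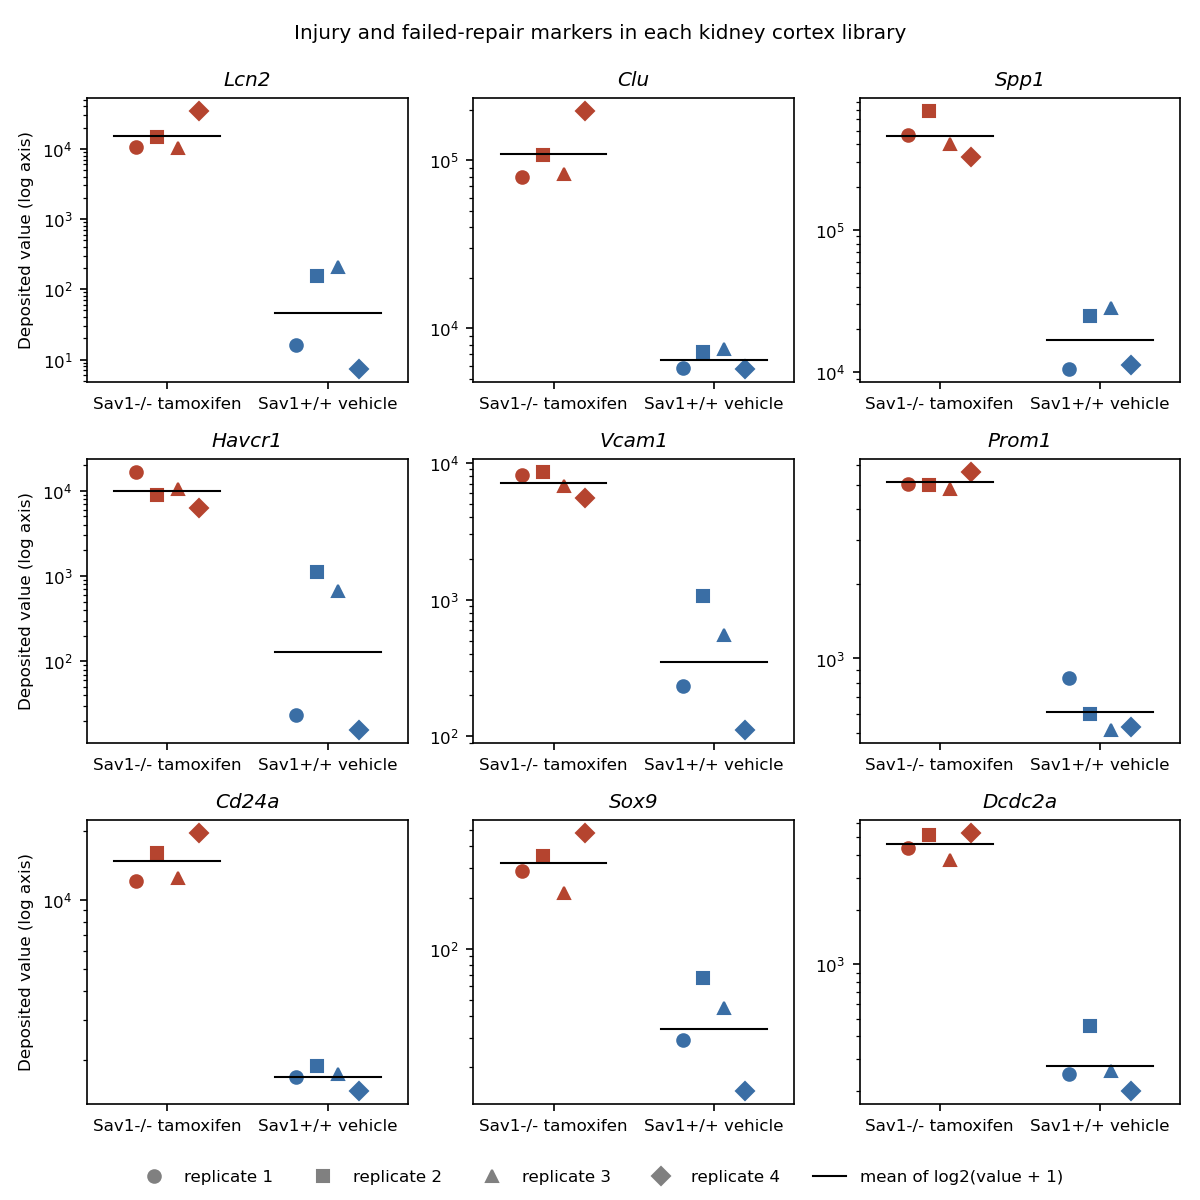
Deposited normalized values (vertical, log axis, separate range per gene) of the 9 genes in each library, KS (Sav1-/- tamoxifen) at the left and control (Sav1+/+ vehicle) at the right of each panel. Symbols are replicates and the line is the mean taken on the log2(value + 1) scale; no panel has overlapping groups, and control replicates 2 and 3 stand above replicates 1 and 4 for Lcn2, Spp1, Havcr1 and Vcam1.

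Among the secreted proteins, Lcn2 moved most. Lcn2 encodes lipocalin 2, which binds bacterial siderophores and is released by injured tubules and by neutrophils. Its values were 10615, 14902, 10258 and 34529 in KS replicates 1 to 4, against 16.3, 156, 211 and 7.22 in control replicates 1 to 4. KS replicate 4 was the highest of its group, and control replicates 2 and 3 were far above replicates 1 and 4. The log2 fold change was 8.37 ± 0.99 (SE, limma adjusted p = 6.35e-05), the fourth largest of the tested genes. Because the control values are so uneven the size depends on how they are averaged: the fold taken on the log scale was 330 and the ratio of the plain means was 180. It was 546-fold without control replicate 3, 185-fold without control replicate 4, and 1290-fold without control replicates 2 and 3. The lowest control value stood for about 7 reads (exact Poisson 95% interval 2.81 to 14.4, counting error only).

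Clu encodes clusterin, a secreted chaperone of the tubule lumen. It was at 79050, 107488, 83208 and 196780 in KS libraries and at 5783, 7237, 7515 and 5695 in control libraries. The controls were tight here and KS replicate 4 stood highest, so the spread lay on the KS side. Clu rose 16.7-fold (log2 fold change 4.06 ± 0.27 SE, limma adjusted p = 2.87e-06). Spp1 encodes osteopontin, a secreted phosphoprotein that binds integrins and CD44 and is made by loop of Henle and injured tubule cells as well as by macrophages. It was at 469068, 687852, 403793 and 328005 in KS libraries and at 10435, 24941, 28144 and 11238 in control libraries. Spp1 rose 26.8-fold (log2 fold change 4.75 ± 0.39 SE, limma adjusted p = 7.20e-06), and 42.0-fold without control replicates 2 and 3. Here KS replicate 4 was the lowest of its group. Spp1 made up 2.12% to 4.23% of the summed values of a KS library and 0.0495% to 0.135% of a control library. The 9 genes together made up 3.25% to 5.25% of the summed values in KS and 0.0910% to 0.190% in control libraries.

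Among the surface proteins, Havcr1 had the most uneven controls. Havcr1 encodes KIM-1, a phosphatidylserine receptor of injured proximal tubule whose ectodomain is shed into urine. Its values were 16582, 8933, 10330 and 6275 in KS libraries and 23.6, 1099, 665 and 15.5 in control libraries. The lowest KS library was 5.71 times the highest control library. The log2 fold change was 6.24 ± 1.29 (SE, limma adjusted p = 0.00194), or 75.4-fold, while the ratio of the plain means was 23.4. Left out in turn, control replicates 1, 2, 3 and 4 gave 43.2-fold, 153-fold, 130-fold and 37.8-fold, each still called. Without control replicates 2 and 3 together it was 492-fold. The direction thus did not depend on these libraries but the size did.

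Vcam1 encodes an adhesion molecule for α4 integrins that is also present on activated endothelium. It was at 8161, 8607, 6839 and 5548 in KS libraries and at 235, 1059, 556 and 110 in control libraries. The controls ranged over 9.60-fold and the KS libraries over 1.55-fold. Vcam1 rose 20.4-fold (log2 fold change 4.35 ± 0.59 SE, limma adjusted p = 0.000142), and 44.4-fold without control replicates 2 and 3.

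Prom1, which encodes the membrane protein CD133, and Cd24a, which encodes a small glycosylphosphatidylinositol-anchored antigen, had the smallest rises of the 9. Prom1 was at 5048, 5005, 4792 and 5637 in KS libraries and at 832, 600, 513 and 531 in control libraries. It had the tightest KS group of the 9 and the only control group whose highest library was replicate 1. Its log2 fold change was 3.07 ± 0.15 (SE, limma adjusted p = 6.85e-07). Cd24a was at 12131, 16051, 12444 and 19559 in KS libraries and at 1689, 1896, 1737 and 1463 in control libraries. Its log2 fold change was 3.13 ± 0.16 (SE, limma adjusted p = 8.29e-07). The controls of Cd24a spanned 1.30-fold and the KS libraries 1.61-fold, with KS replicate 4 the highest.

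Sox9 encodes the transcription factor that surviving tubule cells switch on as they proliferate after injury. It was at 287, 349, 213 and 480 in KS libraries and at 29.0, 67.0, 45.0 and 14.4 in control libraries. Sox9 rose 9.19-fold (log2 fold change 3.20 ± 0.43 SE, limma adjusted p = 0.000145), and 14.8-fold without control replicates 2 and 3. The lowest control value stood for about 14 reads. Dcdc2a encodes a doublecortin-domain protein that binds microtubules and is found at primary cilia. It was at 4362, 5126, 3743 and 5291 in KS libraries and at 249, 456, 257 and 199 in control libraries. Control replicate 2 stood above the other three. Dcdc2a rose 16.5-fold (log2 fold change 4.05 ± 0.23 SE, limma adjusted p = 1.37e-06).

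**Figure D2:**
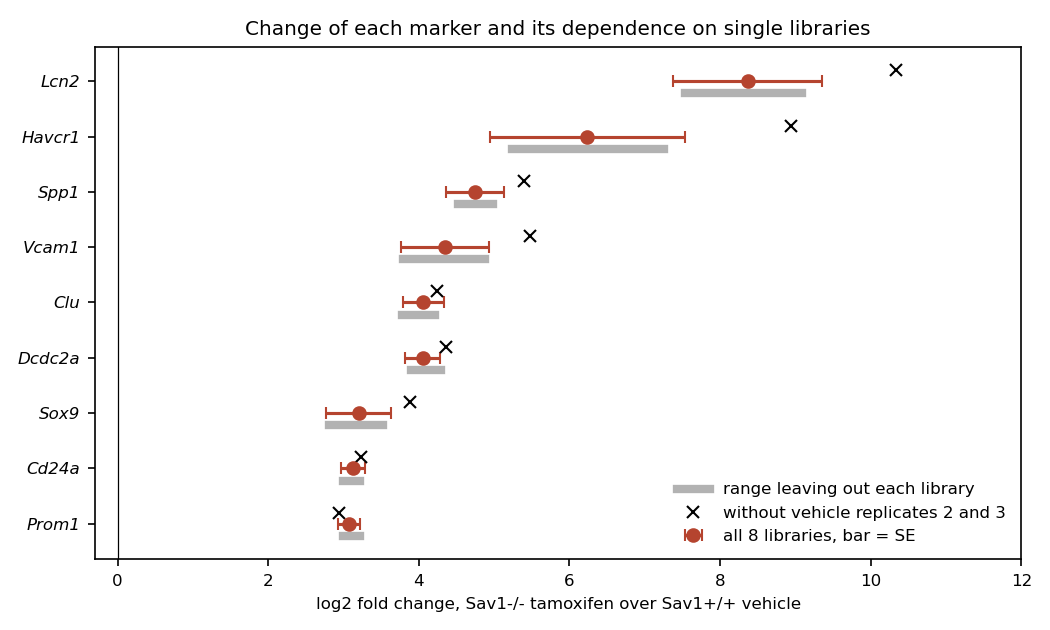
Log2 fold change of each gene, KS over control, with its SE (red), the range when each library is left out in turn (grey bar) and the value without control replicates 2 and 3 (cross). Every value lies at 2.81 or above, and the crosses of Lcn2 (10.33) and Havcr1 (8.94) lie farthest from their values over all 8 libraries.

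Levels of different genes can be compared once divided by exon length. In KS libraries Spp1 led with 286517 ± 93996 per kilobase, followed by Clu (64437 ± 30323) and Lcn2 (19209 ± 12565), whose ranges did not meet. Cd24a came next (7394 ± 1717) and Havcr1 after it (4659 ± 1934), and the ranges of these 2 overlapped. Vcam1 (1463 ± 277) and Prom1 (1052 ± 74.4) also overlapped, and Dcdc2a (576 ± 89.1) and Sox9 (80.3 ± 27.4) were lowest and separate. In control libraries Spp1 (11341 ± 5563), Clu (3623 ± 526) and Cd24a (834 ± 87.9) led in that order without overlap. Havcr1 (199 ± 234), Prom1 (127 ± 30.2), Lcn2 (107 ± 111) and Vcam1 (98.3 ± 84.9) could not be ordered beyond their spread, and Dcdc2a (36.1 ± 14.1) and Sox9 (9.40 ± 5.45) had the lowest means. All are means ± SD over 4 libraries of the value divided by exon length.

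The 4 control libraries differed among themselves in Havcr1, Lcn2, Vcam1, Sox9 and Spp1 far more than in most genes. The SD of log2(value + 1) among the controls was 3.15 for Havcr1, 2.32 for Lcn2, 1.42 for Vcam1, 0.92 for Sox9 and 0.75 for Spp1, beside a median of 0.16 over all tested genes. Havcr1 ranked sixth, Lcn2 nineteenth and Vcam1 59th of 13677 tested genes by this SD. Dcdc2a (0.51), Prom1 (0.32) and Clu (0.21) were above the median but closer to it, at percentiles 89.7, 78.6 and 63.5 of all tested genes. Cd24a (0.16) was just below the median, at percentile 49.0. In the KS group the same SD was 0.58 for Havcr1, 0.81 for Lcn2, 0.29 for Vcam1, 0.49 for Sox9 and 0.45 for Spp1, beside a median of 0.22. The SD was larger in the controls than in KS for 7 of the 9 genes, the exceptions being Clu and Cd24a, and for 37.2% of all tested genes.

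**Figure D3:**
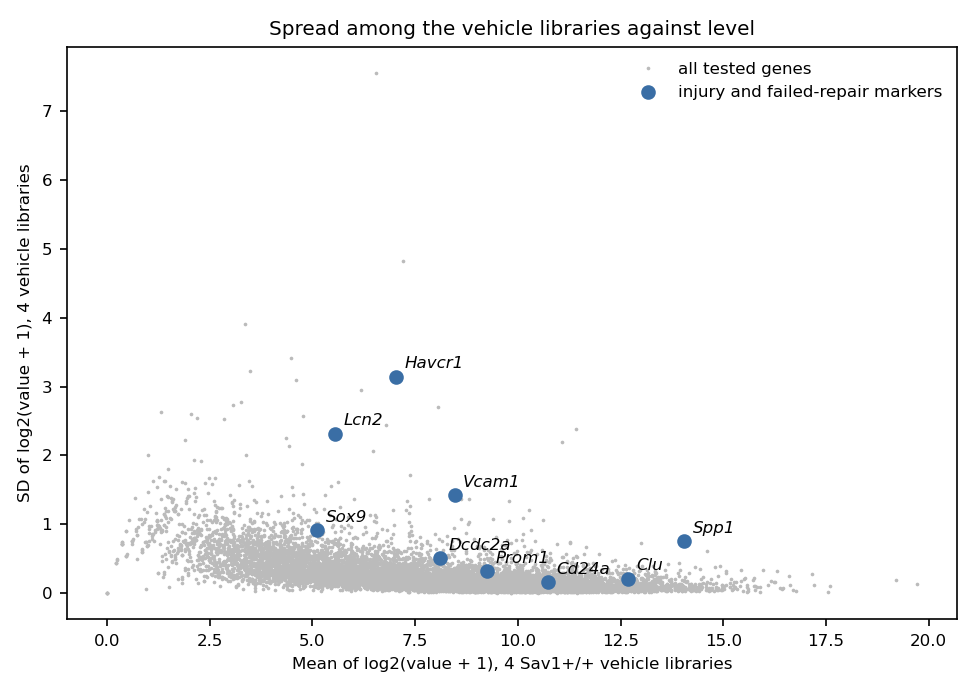
SD of log2(value + 1) among the 4 control (Sav1+/+ vehicle) libraries (vertical) against the mean on the same scale (horizontal) for all 13677 tested genes (grey) and the 9 described here (blue). Havcr1, Lcn2 and Vcam1 lie above nearly all genes of like level, while Cd24a and Clu lie near the main cloud.

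The same control libraries were high each time. Replicates 2 and 3 were the 2 highest controls for 8 of the 9 genes, Prom1 being the exception, and for 15.4% of all tested genes. For Dcdc2a and Cd24a the step between replicate 3 and replicate 1 was small (257 and 249, 1737 and 1689). The values of Havcr1 stood for about 1312 and 695 reads in replicates 2 and 3 and for about 26 and 15 reads in replicates 1 and 4. These 2 controls stayed below every KS library in all 9 genes. Summed macrophage markers moved the same way among the controls, at 1331, 2097, 1780 and 1176 in replicates 1 to 4. Summed markers of healthy proximal tubule were at 727530, 666821, 717709 and 736206, lowest in replicate 2. The part of these in the spread was not tested.

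The 3 tested genes outside the 9 whose profile over the 4 controls was nearest to that of Havcr1 were Abhd1, Timp1 and Saa1, with root mean square differences of 0.57, 0.60 and 1.01 on the log2 scale. Timp1, a metalloproteinase inhibitor, was at 1.81, 37.7, 43.1 and 0 in the controls. Saa1, an acute-phase apolipoprotein, was at 0, 9.21, 18.2 and 0. Among the 9, Lcn2 was nearest to Havcr1 (0.86) and Prom1 farthest (2.84). With 4 libraries such nearness is a description of these libraries only.

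**Figure D4:**
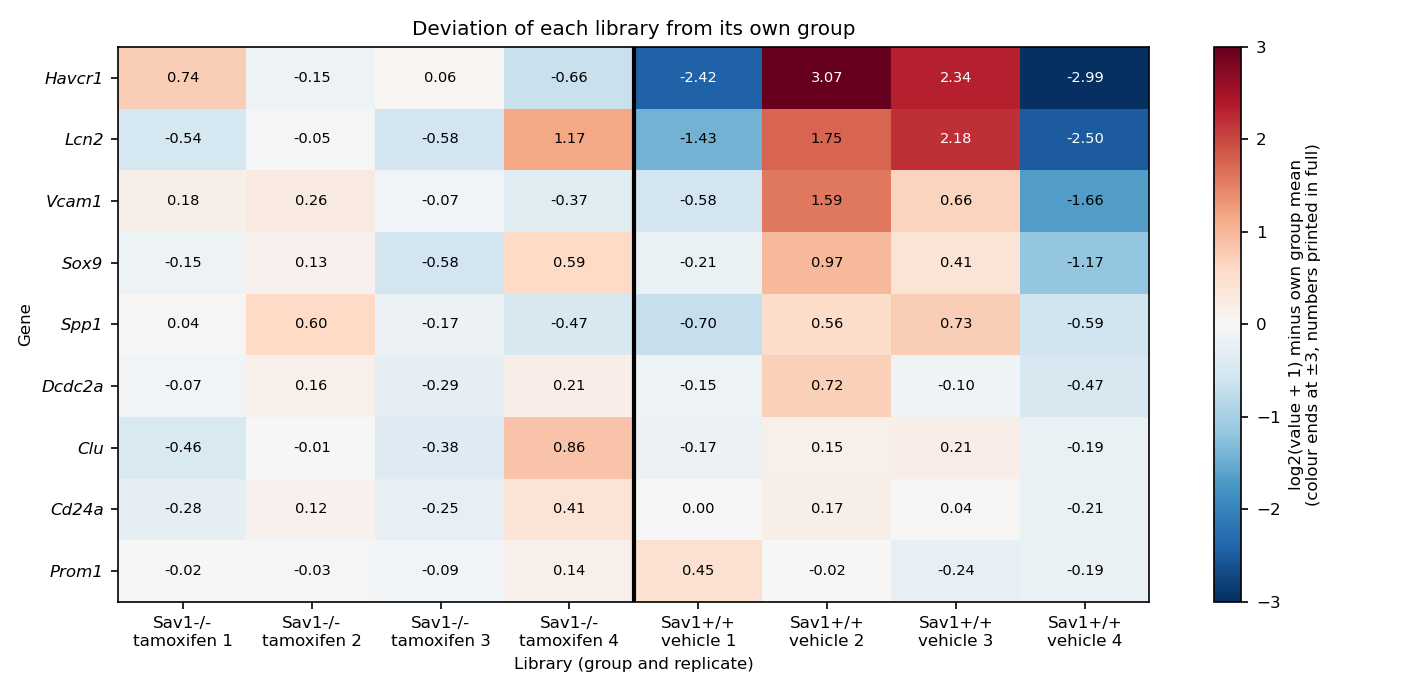
Deviation of each library from the mean of its own group in log2(value + 1), for the 9 genes (rows) in the KS libraries (left of the line) and the control libraries (right of it), with red above and blue below the group mean. Control replicates 2 and 3 are red and 1 and 4 blue for Havcr1, Lcn2, Vcam1, Sox9, Spp1 and Clu, and KS replicate 4 is red for 6 genes and blue for Havcr1, Vcam1 and Spp1.

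Within the KS group replicate 4 stood at one end for every gene. It was the highest KS library for Lcn2, Clu, Sox9, Prom1, Cd24a and Dcdc2a and the lowest for Havcr1, Vcam1 and Spp1. Most tested genes also had this library at one end (highest for 38.4%, lowest for 42.8%), so this position is not particular to the 9. Summed collecting duct principal cell markers were highest in this library (24305, 36899, 27165 and 42909 in KS replicates 1 to 4) and summed healthy proximal tubule markers lowest (143244, 115424, 172339 and 65268). Summed neutrophil markers were at 42.9, 63.5, 104 and 534. Without KS replicate 4 all 9 genes were still called, and the log2 fold change of Clu was 3.78 and that of Cd24a 2.99. The part of these cell types in the order of the KS libraries was not tested.

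A further 30 genes of injured or unrepaired tubule were listed beside the 9, with earlier results of these data known. Enough expression to be tested was found for 29. Of these, 28 rose and 1 fell, with a median log2 fold change of 3.38 beside 0.23 over all tested genes, of which 43.9% rose and 25.2% fell. After median-of-ratios rescaling 27 rose, the call of Il34 being lost. Cdh6, a cadherin of the developing and injured proximal tubule, was at 231 ± 40.1 in KS and 11.5 ± 2.84 in control libraries (18.7-fold, limma adjusted p = 8.50e-07). Myc, the growth-promoting transcription factor gene, rose 12.4-fold (limma adjusted p = 2.13e-06). Mmp7, the matrilysin gene, was at 884 ± 530 in KS and 1.17 ± 1.82 in control libraries, and it passed the expression filter only through the KS libraries. Hmox1, the haem-degrading oxygenase usually raised by oxidative injury, went the other way, at 474 ± 142 in KS and 921 ± 156 in control libraries (log2 fold change -0.99, limma adjusted p = 0.00230). Control replicates 2 and 3 were the 2 highest controls for 14 of these 29 genes and for 15.4% of all tested genes. Tff3, the trefoil factor gene, was listed at 0 in all 8 libraries.

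Known binding partners and relatives of the 9 moved less and in both directions. Of 27 listed, 20 were tested, 15 rose and 5 fell, with a median log2 fold change of 0.89, where 43.9% of all tested genes rose and 25.2% fell. Among the rises, Mmp9, Sox8 and Dclk1 averaged 2.73, 5.96 and 4.07 in the control libraries. These passed the expression filter only through the KS libraries. After quantile normalization 12 rose, the calls of Slc22a17, Mmp9 and Itga9 being lost, and 14 rose after median-of-ratios rescaling. Itgav, the αv integrin subunit that binds osteopontin, was at 8731 ± 1104 in KS and 2317 ± 294 in control libraries (3.77-fold, limma adjusted p = 2.08e-06), and Itgb3, its β3 partner, rose 3.94-fold. Both subunits of the α4β1 receptor of VCAM-1 rose, Itga4 by 1.48 and Itgb1 by 0.54 on the log2 scale (limma adjusted p = 0.000720 and 0.000413). Adam10 and Adam17, membrane proteases that shed ectodomains, rose 1.93-fold and 1.52-fold. Lrp2, which encodes megalin, the proximal tubule receptor that takes up filtered lipocalin 2 and clusterin, was at 10114 ± 4214 in KS and 36777 ± 2405 in control libraries (log2 fold change -1.97, limma adjusted p = 0.000209).

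The relatives of a member did not follow it in each case. Timd2, a TIM family gene related to Havcr1, was at 462 ± 98.5 in KS and 2681 ± 197 in control libraries, a fall of 2.56 on the log2 scale (limma adjusted p = 1.31e-06). Havcr2, the TIM-3 gene of immune cells, rose 5.05-fold and averaged 70.2 in KS libraries. Prom2, the paralog of Prom1, had overlapping groups and a log2 fold change of -0.42 (limma adjusted p = 0.0316), a call lost with equal library totals (-0.04). Sox4 and Sox8, relatives of Sox9, rose 7.05-fold and 7.07-fold, and Dclk1, a doublecortin-like kinase gene, was at 79.0 ± 12.1 in KS and 4.07 ± 2.10 in control libraries (16.7-fold, limma adjusted p = 7.20e-06). The receptor genes Vldlr and Lrp8 fell by 0.48 and 0.75 on the log2 scale, and both calls were also lost with equal totals. With equal totals 2 of the 20 were called lower. Without KS replicate 2, or without control replicate 4, 3 were.

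**Figure D5:**
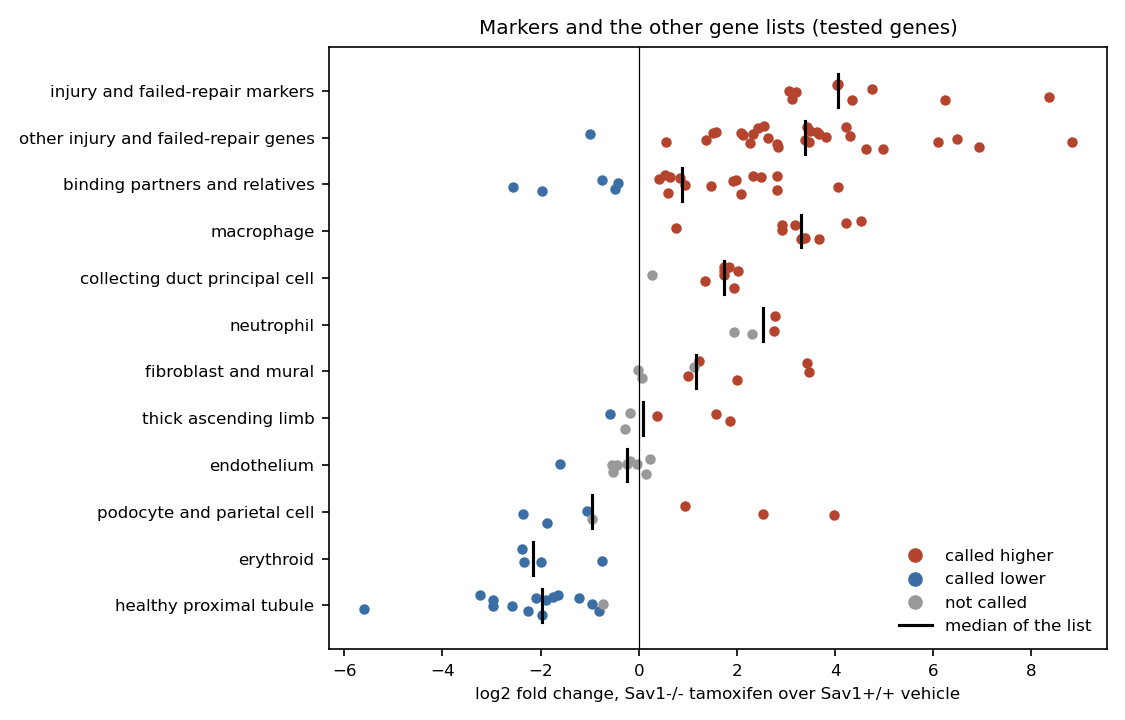
Log2 fold change, KS over control, of every tested gene in the 9-gene group and in the other lists, coloured by call, with the median of each list as a black line. The 9 genes all lie at 3.07 or above, the healthy proximal tubule genes all lie below 0, and the binding partners lie on both sides.

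The tested genes outside the 9 whose profile over all 8 libraries was nearest to each member were found by the smallest root mean square difference on the log2(value + 1) scale, each gene centred on its own mean. Clu was nearest to Klf5, an epithelial transcription factor gene (0.11), and to the P-cadherin gene Cdh3 (0.13). Dcdc2a was nearest to Osmr, the oncostatin M receptor gene (0.14), and to Dclk1 (0.17). Cd24a was nearest to Susd1 (0.12) and the tyrosine kinase gene Fgr (0.13), and Prom1 to Sec14l2 and Gm885 (0.18 each). Vcam1 was near to Cd44, an osteopontin and hyaluronan receptor gene (0.33), and Sox9 was nearest to the annexin gene Anxa3 and to Ttc9 (0.24 each). Spp1 was nearest to Hesx1 (0.38) and Ccl9, a macrophage chemokine (0.39). No gene came close to the members with uneven controls: Lcn2 was nearest to the interleukin 1 family gene Il1f6 (0.64) and Mmp7 (0.94), and Havcr1 to Timp1 (0.59) and Serpina10 (0.85). Klf5, Dclk1, Gm885, Ttc9, Hesx1, Il1f6 and Mmp7 averaged only 1.17 (Mmp7) to 5.87 (Ttc9) in the controls, where 3 reads stand for 2.51 to 3.09. They were tested only because of their KS values, and their nearness depends in part on the 1 added before the log.

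Markers of other cells that make some of the 9 products changed too. All 10 macrophage markers in the table rose (summed level 8389 to 11579 in KS and 1176 to 2097 in control libraries), among them the complement gene C1qa (9.07-fold) and the integrin gene Itgam (18.7-fold). Of 11 neutrophil markers 4 were tested and 2 rose, Csf3r and Cxcr2, a share near the 43.9% of all tested genes called higher. The call of Cxcr2 was lost after quantile normalization. The 4 tested genes averaged 1.11 (Cxcr2) to 7.18 (S100a9) in the control libraries. They passed the expression filter only through the KS libraries, which favours a call of higher. Their list had summed levels of 42.9 to 534 in KS and 7.22 to 27.2 in control libraries. S100a8 and S100a9, also tested, were not called, although both were highest in KS replicate 4 (104 and 199). In control libraries they were at most 6.35 and 10.9, and S100a9 was called higher with equal totals. Camp and Elane, neutrophil granule genes, were listed at 0 in all 8 libraries, and Ngp and Mpo were at 0 in all KS libraries. Of 8 principal cell markers 7 rose and 0 fell (24305 to 42909 in KS and 10689 to 13756 in control libraries), such as the epithelial sodium channel gene Scnn1g (3.33-fold), and 8 rose with equal totals. Of 8 fibroblast and mural markers 5 rose and 0 fell (2148 to 6246 in KS and 1192 to 1745 in control libraries), with 3 rises after median-of-ratios rescaling or quantile normalization and 6 with equal totals. Of the 15 healthy proximal tubule markers 14 fell and 0 rose (65268 to 172339 in KS and 666821 to 736206 in control libraries), the organic anion transporter gene Slc22a6 by 2.96 on the log2 scale (limma adjusted p = 7.20e-06). After quantile normalization 10 of the 15 fell, and with equal totals 13 did. Of all 13677 tested genes, 25.2% were called lower as deposited. After quantile normalization 4309 of them rose and 4515 fell. After median-of-ratios rescaling 4619 rose and 4646 fell, and with equal totals 8674 rose and 1946 fell.

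Markers of the remaining cell types moved in both directions. Beside them, 43.9% of all 13677 tested genes were called higher and 25.2% lower as deposited. The rises among podocyte and parietal cell genes and among thick ascending limb genes lay near that share. The counts of all tested genes after each rescaling are those given above. Of 9 endothelial markers 0 rose and 1, Kdr, fell (1589 to 3571 in KS and 3110 to 3904 in control libraries), although 4 fell after quantile normalization and 1 rose with equal totals. All 4 tested genes of the erythroid list fell (1016 to 1684 in KS and 3547 to 8066 in control libraries), but not alike. Alas2, Hba-a2 and Hbb-b1 fell 5.20-fold, 3.96-fold and 5.05-fold, and Slc4a1 only 1.67-fold. The B cell genes Cd79a and Ms4a1 were below the filter, and Cd79b rose 2.75-fold, a call lost after quantile normalization. All 7 urothelial markers were below the filter (15.6 to 48.2 in KS and 0 to 9.57 in control libraries), with Krt14 at 0 in every library. Podocyte and parietal cell genes split, 3 up and 3 down, or 3 up and 4 down after quantile normalization and 3 up and 2 down with equal totals (3937 to 8179 in KS and 4165 to 5411 in control libraries). The parietal cell gene Cldn1 rose 5.81-fold, and Nphs1, the nephrin gene of podocytes, fell by 2.36 on the log2 scale (limma adjusted p = 0.00328). Thick ascending limb genes had 3 rises and 1 fall among 6 (37182 to 80213 in KS and 62784 to 65276 in control libraries), with 4 rises and 1 fall after quantile normalization, 3 rises and 0 falls with equal totals, and 2 rises and 1 fall after median-of-ratios rescaling. The part of any of these cells in the rise of the 9 genes was not tested.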

How the data were processed

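Poly(A) RNA of mouse kidney cortex was sequenced from stranded libraries, per the labels' protocols. The authors deposited 1 normalized signal value per gene and library, which is not a count. Per the submitters' processing notes, RSEM, Picard 1.64 and SAMtools were used with build mm9. Which aligner and annotation were used, and whether reads were assigned by strand, is not given in the sources used here. Reads that match like genes are shared out by RSEM. In GENCODE M21 antisense genes overlap Vcam1 and Prom1, and an opposite-strand pseudogene overlaps Dcdc2a. Other genes on the same strand overlap Spp1 and Prom1. The values of these genes carry that uncertainty. Of the values below 400, 92.7% to 93.3% per library came out as whole reads (tolerance 0.02 read), too few for a count model.

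The 13677 of 21705 genes whose average over all 8 libraries reached 10 were compared on log2(value + 1) with limma 3.58.1 in R 4.3.3 (variance trend, 6 residual degrees of freedom), with Benjamini-Hochberg adjustment over all tested genes and a threshold of 0.05. Fold changes are antilogs of log2(value + 1) differences, which understates changes of low genes. A gene near 0 in one group can pass the filter through the other group alone, and its call then tends toward that group. Among the listed genes this held for Csf3r, Cxcr2, S100a8, S100a9, Mmp7, Mmp9, Sox8, Dclk1 and Lum, through the KS libraries. The fit was checked on simulated data. Exon lengths came from GENCODE M21, build GRCm38, and promoter windows from RefSeq, so no position refers to mm9. The 9 genes, the other lists and the alternatives were chosen with earlier results of these data known. In each list up to 3 called genes per direction with the smallest p were named, and for each of the 9 genes the 2 nearest profiles. Some genes under these rules are not reported here. Itgb3, Itga4, Itgb1, Adam10, Adam17, Havcr2, Sox8, Prom2, Lrp8, Slc22a17, Mmp9, Itga9, Il34, Slc34a1, Slc5a2, S100a8, S100a9, Cd79a, Ms4a1 and genes listed at 0 were named after their values were seen. The older symbol Emr1 was used for Adgre1. Alternatives were pseudocounts of 0.5 and 10, no filter, 3 other scalings, no variance trend, a replicate block, each library left out, and control replicates 2 and 3 left out. The tools for other steps were Python 3.11.15, SciPy 1.17.1 and matplotlib 3.10.9.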

Additional observations from a re-analysis of the deposited data

Results flagged for a closer look

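Among the 9 genes no library stood apart from its group by the gap test used here. In it, the distance of an extreme library to its neighbour is divided by the range of the group. Such a test looks at a single extreme library and cannot flag control replicates 2 and 3 standing high together. Of the 132 gene and group pairs looked at, 2 passed the 95% limit for 4 libraries, and chance flags about 1 in 20 such groups. Both were neutrophil genes in KS replicate 4. Csf3r was at 147 there, against 25.8 to 39.1 in the other KS libraries (gap ratio 0.890), and Cxcr2 was at 66.9, against 3.91 to 11.1 (gap ratio 0.887). Lcn2, which neutrophils also make, was highest in the same library, and the part of these cells was not tested.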

How the results depend on the processing

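All 9 genes were called higher under each of the 17 alternatives, with limma adjusted p of 0.0138 or below and log2 fold changes from 2.41 (Sox9, quantile normalization) to 10.33 (Lcn2, without control replicates 2 and 3). The largest of these adjusted p-values was that of Havcr1 with no filter. The median of all tested genes, 0.23 as deposited, moved by -0.22 after median-of-ratios rescaling, by -0.25 after quantile normalization and by 0.38 with equal totals, and the share of calls that were higher was 63.5%, 49.9%, 48.8% and 81.7% in that order. With equal totals 1946 genes were called lower in place of 3452. The binding partners called lower were 3 with no filter and 2 with equal totals in place of 5, and 3 to 5 when each library was left out. Replicate numbers are shared between the groups. Deviations of same-numbered libraries correlated at 0.14, 0.08, -0.17 and 0.13, and those of differently numbered libraries at -0.22 to 0.24. No pairing by number was seen, although so few values cannot exclude it. With the replicate block 9318 genes were called in place of 9454, 5927 higher and 3391 lower, and all 9 genes remained called. The SD among the controls of Havcr1 was 2.73 to 3.17 and that of Lcn2 1.85 to 2.36 under other pseudocounts and scalings, which were added after seeing the data. Lcn2, Havcr1 and Sox9 stood for about 7 to 32 reads in control replicates 1 and 4, which limits the precision of their fold changes.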

Other observations

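Abhd1, an alpha/beta hydrolase family gene, followed Havcr1 among the controls but not across the groups. It was at 31.8, 304, 43.7 and 237 in KS replicates 1 to 4, against 47.9, 1224, 1455 and 54.7 in control replicates 1 to 4. Replicates 2 and 3 were thus the high controls, as for Havcr1, while in KS libraries the high values were those of replicates 2 and 4. Its log2 fold change was -1.38 ± 1.28 (SE, limma adjusted p = 0.359), which did not pass the test.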
